A study of Mus musculus with 20 samples.

Results

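The 10 genes described here are 8 genes known to be induced by glucocorticoid hormones, Fkbp5, Tsc22d3, Zbtb16, Sgk1, Cebpd, Klf9, Glul and Ddit4, and 2 metallothionein genes, Mt1 and Mt2. They were taken by gene symbol, each matched to 1 identifier among the 55401 genes of the count matrix. All 10 passed the filter on low counts that kept 13626 genes for testing. Their RNA was measured in a calf muscle, the gastrocnemius, from 20 C57BL/6 mice aged 24 months.

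Of these mice, 10 received Haenkenium (HK), a hydroethanolic Salvia haenkei extract, with their drinking water at 0.5 mg per kg per day from 20 months of age for 4 months, and 10 drank plain water (untreated). Males and females were 5 each in either group. The mice belonged to 2 experimental batches, batch 1 with 8 mice (4 HK, 4 untreated) and batch 2 with 12 mice (6 HK, 6 untreated), and each batch held as many males as females in either group. Young mice were not analysed here. The library of each mouse, made from RNA depleted of ribosomal RNA, held between 13900180 and 30469644 counts (13994011 to 30469644 in batch 1, 13900180 to 17951683 in batch 2).

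Glucocorticoids are steroid hormones of the adrenal cortex that rise with stress, fasting and the daily cycle. They bind the glucocorticoid receptor, encoded by Nr3c1, which moves to the nucleus and binds DNA at glucocorticoid response elements, and in skeletal muscle their excess is known for promoting protein breakdown and atrophy. Metallothioneins are small cysteine-rich proteins that bind zinc and copper, and their genes respond to metals through the transcription factor Mtf1, which binds metal response elements, and to glucocorticoids. Many of the 10 genes also respond to other signals, such as cytokines, insulin, low oxygen or energy stress.

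Promoter sequence was at hand for 8 of the 10 genes (all but Zbtb16 and Cebpd), as 15 windows of RefSeq start sites on GRCm38.p6. Each window, of 300 bases from 250 before to 50 after a start site, was searched on both strands for the core of the metal response element (TGCACNC or TGCGCNC), for a half-site of the glucocorticoid response element (TGTTCT) and for the full palindromic element (GNACANNNTGTNC), in which a half-site can overlap the full element. The 250 bases before the start are shown for the metallothionein genes, whose levels moved together across mice, and for the Sgk1 window that held most glucocorticoid element letters. Capitals mark the matches.
Mt1, chr8:94178839-94179088, plus strand: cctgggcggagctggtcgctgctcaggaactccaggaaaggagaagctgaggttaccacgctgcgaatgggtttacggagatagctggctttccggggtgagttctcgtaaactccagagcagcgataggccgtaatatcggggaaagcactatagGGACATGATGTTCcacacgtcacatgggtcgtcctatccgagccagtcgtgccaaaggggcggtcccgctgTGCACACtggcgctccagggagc
Mt2, chr8:94172368-94172617, plus strand: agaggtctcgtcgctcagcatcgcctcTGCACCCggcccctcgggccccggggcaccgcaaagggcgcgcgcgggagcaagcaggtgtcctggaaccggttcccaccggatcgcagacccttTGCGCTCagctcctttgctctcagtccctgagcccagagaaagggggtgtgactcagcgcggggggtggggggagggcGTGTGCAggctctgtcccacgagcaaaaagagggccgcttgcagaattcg
Sgk1, the fifth of its 6 windows, chr10:21993640-21993889, plus strand: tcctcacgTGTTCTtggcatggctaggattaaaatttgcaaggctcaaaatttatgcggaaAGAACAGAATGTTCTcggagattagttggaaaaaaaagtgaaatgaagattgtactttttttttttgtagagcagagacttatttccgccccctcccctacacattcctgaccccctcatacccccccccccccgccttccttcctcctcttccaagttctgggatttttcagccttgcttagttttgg

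The Mt1 window held 3 matches to the metal response core, starting at positions -23, 3 and 21 from the start site, and 1 full glucocorticoid element at -94. The Mt2 window held 4 matches to the metal response core, at -223, -128, -50 and 5. Of all 32851 windows in the table, 25.7% held at least 1 match to this core, 1.97% at least 3 and 0.517% at least 4. The Sgk1 window held 3 half-sites, at -242, -189 and -180, and the full element at -188 overlaps both of the last in part. At least 3 half-sites were in 0.31% of all windows, at least 1 in 19.0% and the full element in 0.475%. Single half-sites were in 1 window of Tsc22d3 and in 2 other windows of Sgk1, and single metal response cores in Glul, Ddit4 and another Sgk1 window. The windows of Fkbp5 and Klf9 held none of these letters, which says nothing of sites elsewhere.

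Per kb of exon, the 10 genes covered a wide range of levels. Median CPM (counts scaled to library size) per kb over the 20 mice was 126.6 for Glul, 57.2 for Tsc22d3, 48.6 for Klf9, 37.8 for Sgk1, 37.1 for Mt2, 19.0 for Mt1, 13.2 for Zbtb16, 9.53 for Ddit4, 5.47 for Fkbp5 and 2.43 for Cebpd. In this order each gene overlapped its neighbours in the range over mice. The annotation merges the exons of Mt1 into 1 exon spanning the gene, of 1246 bases, so its level per length is set too low against Mt2 (588 bases). From here on, levels are CPM and differences are on the log2 scale, given ± SE.

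The 10 genes differed in how much they varied between mice of like batch, sex and treatment. The residual SD of log2 CPM was 1.32 for Ddit4, 1.15 for Mt2, 1.04 for Mt1, 0.792 for Cebpd and 0.729 for Fkbp5, at the 99.8th, 99.6th, 99.4th, 97.7th and 96.5th percentile of all genes tested. Klf9 was the steadiest, with an SD of 0.176 at percentile 38.3, where the median gene had 0.217. The counts of 3 members are less certain, since the use of strand and of shared reads in counting is not given in the sources used here. Mt2 shares 432 exon bases with the antisense gene Gm45774 (30.2% of its 75-base stretches), Cebpd shares 562 with Spidr (13.1%), and 6.63% of the stretches of Glul occur in other genes, mostly the pseudogene Glns-ps1.

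**Figure D1:**
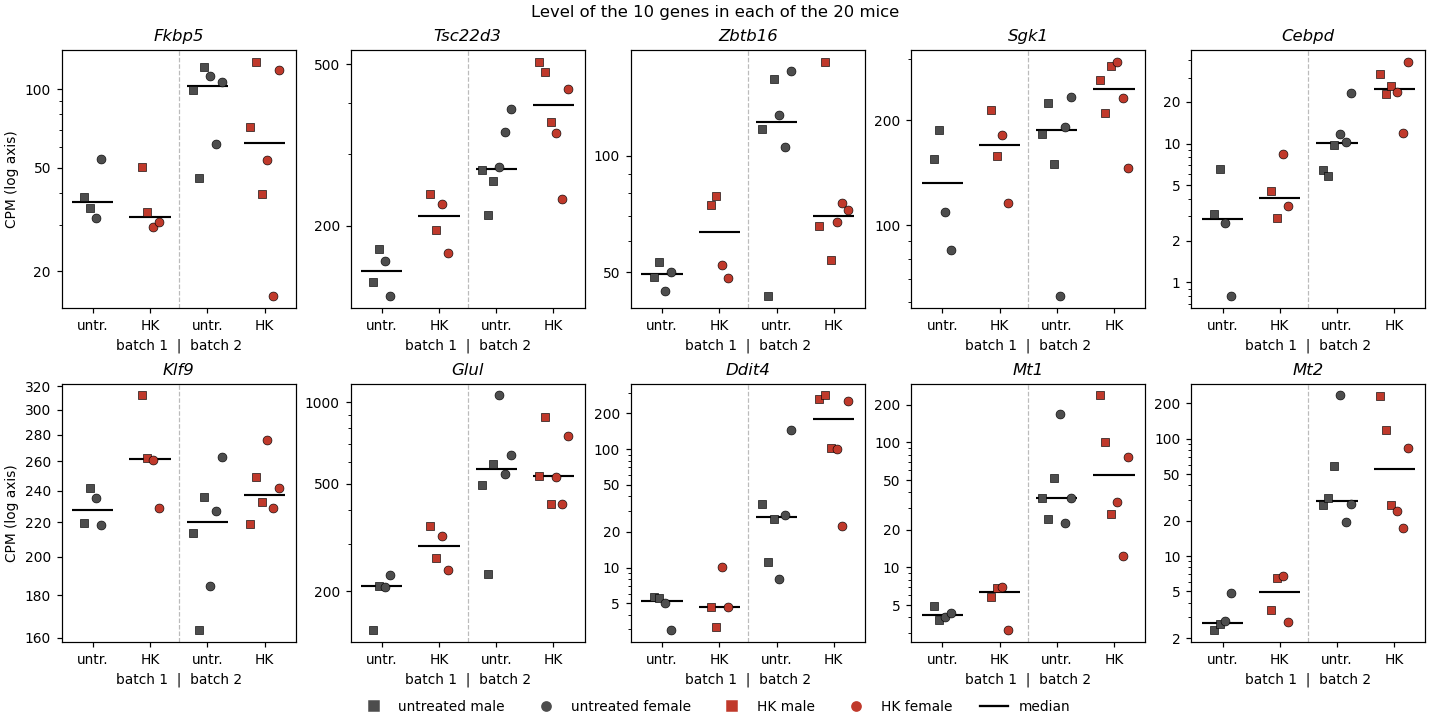
Level of each gene in each mouse, in CPM on a log axis, by batch and treatment, with squares for males, circles for females and a bar at the median of each set of mice. Mt1 and Mt2 were above every batch 1 mouse in all 12 mice of batch 2, while Klf9 stayed between 163 and 312 CPM in all 20.

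The first question was whether HK changed these genes. None of the 10 differed between HK-treated and untreated mice after adjustment over all genes, and neither did any of the 13626 genes (0% called, quasi-likelihood test of edgeR, Benjamini-Hochberg adjustment, batch and sex as covariates, adjusted p of at least 0.356). DESeq2's Wald test called 7 genes, none of them among the 10, and limma voom called 0. At an unadjusted p under 0.05, edgeR gave 835 genes, 379 of them (2.78%) higher with HK. Among the 10 genes, 5 were higher at this level, Tsc22d3, Cebpd, Ddit4, Klf9 and Sgk1, and none was lower. The median log2 difference of the 10 was 0.41, beside 0.00 for all genes tested.

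Tsc22d3 (ENSMUSG00000031431, chrX:140539528-140600659) encodes GILZ, a leucine zipper protein that carries part of the anti-inflammatory action of glucocorticoids. In batch 1 it was at 134, 145, 164 and 175 CPM in untreated mice and at 172, 195, 227 and 239 CPM in HK-treated mice. In batch 2 it ranged from 213 CPM, with a median of 276, to 388 in untreated mice, and from 233, with a median of 397, to 507 in HK-treated mice. The groups overlapped in both batches, and 9 of 10 HK-treated mice were above the untreated median of their batch. The fitted difference was 0.42 ± 0.125 (edgeR unadjusted p = 0.00289, adjusted p = 0.795), with p at most 0.00673 whichever mouse was left out.

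Cebpd (ENSMUSG00000071637, chr16:15887286-15891031), a transcription factor of the C/EBP family that cytokines and glucocorticoids induce, showed the second largest difference of the 10. Its levels in batch 1 were 0.790, 2.65, 3.09 and 6.57 CPM in untreated and 2.90, 3.57, 4.59 and 8.40 CPM in HK-treated mice. In batch 2 they ran from 5.80, with a median of 10.1, to 23.3 CPM in untreated and from 11.9, with a median of 24.8, to 39.1 CPM in HK-treated mice. All 10 HK-treated mice were above the untreated median of their batch, although the groups overlapped. The fitted difference was 1.04 ± 0.307, a 2.05-fold higher level with HK (edgeR unadjusted p = 0.00293, adjusted p = 0.795).

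Ddit4 (ENSMUSG00000020108, chr10:59949669-59951834) encodes REDD1, an inhibitor of the growth-promoting kinase complex mTORC1. In batch 1 it was low in both groups, at 2.95, 5.03, 5.48 and 5.60 CPM without and 3.17, 4.64, 4.66 and 10.0 CPM with HK. In batch 2 it ran from 7.96, with a median of 26.8, to 146 CPM in untreated and from 22.2, with a median of 178, to 284 CPM in HK-treated mice. Thus 5 of 6 HK-treated mice of batch 2 but 1 of 4 of batch 1 were above the untreated median. The fitted difference was 1.48 ± 0.542 (edgeR unadjusted p = 0.0127, adjusted p = 0.795), which was 0.23 ± 0.346 in batch 1 and 2.11 ± 0.754 in batch 2 alone. The difference between the batches was not past the test (1.87 ± 1.07, edgeR unadjusted p = 0.0978, adjusted p = 1).

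Klf9 (ENSMUSG00000033863, chr19:23141226-23168134), a zinc finger repressor that glucocorticoids induce in many tissues, had a small difference of 0.19 ± 0.075 (edgeR unadjusted p = 0.0204, adjusted p = 0.795). It was at 218, 220, 235 and 242 CPM in untreated and 229, 261, 263 and 312 CPM in HK-treated mice of batch 1, and 9 of 10 HK-treated mice were above the untreated median of their batch. Sgk1 (ENSMUSG00000019970, chr10:21882184-21999903), a kinase that regulates ion transport and opposes muscle wasting, had a difference of 0.41 ± 0.183 (edgeR unadjusted p = 0.036, adjusted p = 0.795). It ranged from 62.4 to 234 CPM in untreated and from 116 to 295 CPM in HK-treated mice. Its unadjusted p was under 0.05 with 11 of the 20 mice left out in turn and reached 0.0788 without untreated female replicate 3, the mouse at 62.4 CPM.

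The remaining 5 genes were not past even the unadjusted test. Fkbp5 (ENSMUSG00000024222, chr17:28399094-28517527), the co-chaperone that holds the receptor in a form with low affinity for the hormone and a standard readout of receptor activity, had a difference of -0.29 ± 0.272 (edgeR unadjusted p = 0.3). It ranged from 32.0, with a median of 57.9, to 122 CPM in untreated and from 16.02, with a median of 44.9, to 128 CPM in HK-treated mice, and 3 of 10 HK-treated mice were above the untreated median of their batch. Zbtb16 (ENSMUSG00000066687, chr9:48654297-48836222), the zinc finger factor PLZF and another strongly hormone-induced gene, had a difference of -0.17 ± 0.234 (edgeR unadjusted p = 0.474). In batch 2 it was at or under 75.4 CPM in all HK-treated mice but HK male replicate 4 (176 CPM), whereas 5 of 6 untreated mice were at or above 106 CPM.

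Glul (ENSMUSG00000026473, chr1:153899944-153909723) encodes glutamine synthetase, by which muscle turns glutamate and ammonia into the glutamine it exports. In batch 1 it was at 143, 208, 209 and 230 CPM in untreated and at 239, 265, 321 and 348 CPM in HK-treated mice. In batch 2 it ran from 231, with a median of 567, to 1060 CPM in untreated mice. With HK it ran there from 420, with a median of 533, to 886 CPM. The fitted difference over both batches was 0.25 ± 0.2 (edgeR unadjusted p = 0.223).

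Mt1 (ENSMUSG00000031765, chr8:94179082-94180327) and Mt2 (ENSMUSG00000031762, chr8:94172664-94173568), neighbours on the plus strand of chromosome 8, had differences of 0.42 ± 0.472 and 0.43 ± 0.542 (edgeR unadjusted p = 0.387 and 0.439). In batch 2, Mt1 ran from 22.8, with a median of 35.8, to 169 CPM in untreated and from 12.4, with a median of 54.5, to 238 CPM in HK-treated mice. Single mice moved these estimates. Without untreated female replicate 3 (Mt1 169 and Mt2 234 CPM) the differences were 0.91 and 1.07, and without HK male replicate 3 (238 and 233 CPM) they were 0.04 and 0.06.

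**Figure D2:**
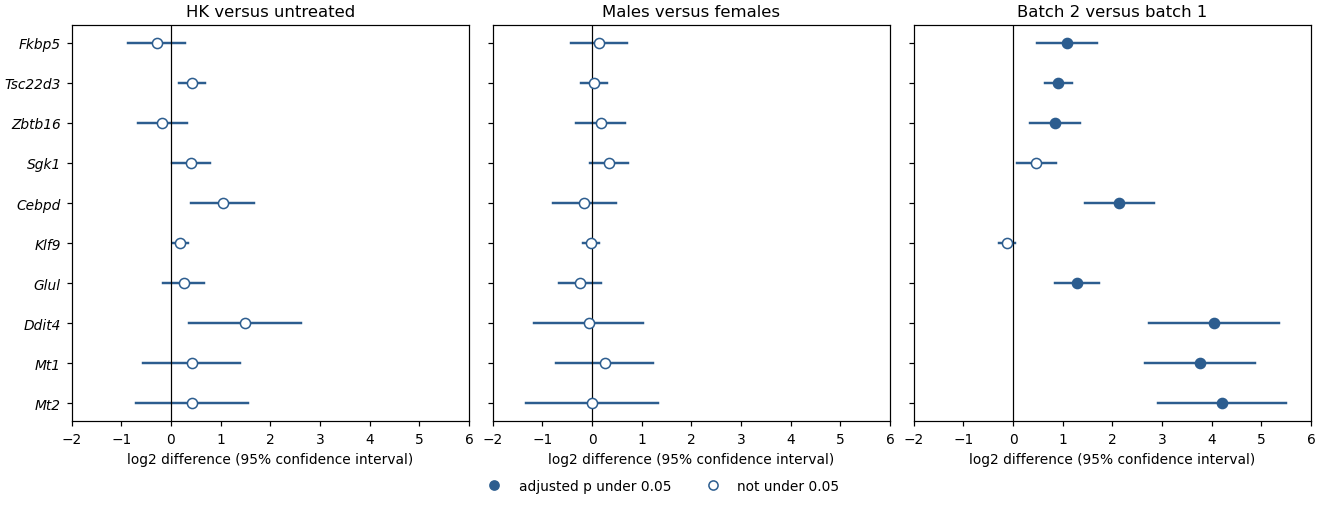
Fitted log2 difference of each gene with its 95% confidence interval for HK versus untreated, males versus females and batch 2 versus batch 1, filled where the adjusted p was under 0.05. No point is filled for treatment or sex, and 8 of 10 are filled for batch.

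Other sets held genes past the unadjusted test by treatment, none of them past adjustment, and their part in the differences above was not tested. Over all 13626 genes tested, 379 were higher and 456 lower with HK at an unadjusted p under 0.05 (edgeR). Of the 8 immediate early genes listed, 3 were higher with HK at an unadjusted p under 0.05 (edgeR) and none past adjustment, and their summed level ran from 121.6 to 990.2 CPM in untreated and from 135.4 to 2450 CPM in HK-treated mice, with none at 0. Of the 6 slow fibre genes, 4 were lower with HK at this level, with sums of 603.1 to 5183 CPM in untreated and 541.9 to 2834 CPM in HK-treated mice. Of the other markers, 1 blood marker was higher and 1 endothelial marker lower at this level, and no macrophage, fibroblast, adipocyte or nerve marker was past it. By direction alone, all 7 macrophage, 5 fibroblast and 6 endothelial markers were lower with HK (median log2 differences of -0.277, -0.221 and -0.248). All 4 nerve markers (median 0.362) and all 8 immediate early genes (median 0.895) were higher, and adipocyte and blood markers went both ways. Of the 8 skeletal muscle fibre markers, none was past the unadjusted test, and their sum was at least 139500 CPM in every mouse. In whole muscle, fewer cells of a type and less RNA per cell cannot be told apart.

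The 2 sexes were then compared in their response to HK. The interaction of treatment with sex was past adjustment for none of the 10 genes and for 0% of all genes (edgeR, lowest adjusted p = 0.998). The interaction is the HK difference in males minus that in females. At an unadjusted p under 0.05 it was above 0 for 249 genes (1.83%) and, of the 10, for Tsc22d3, Mt1 and Mt2. For Mt1 it was 1.83 ± 0.849 and for Mt2 2.12 ± 0.958 (edgeR unadjusted p = 0.044 and 0.0389, adjusted p = 0.998 for both). In batch 2, Mt1 was at 24.6, 35.9 and 52.4 CPM in untreated males, 26.6, 102 and 238 CPM in HK-treated males, 22.8, 35.7 and 169 CPM in untreated females and 12.4, 33.2 and 75.9 CPM in HK-treated females. The sets overlapped, and without untreated female replicate 3 the interaction was 0.99 for Mt1 and 0.93 for Mt2 (edgeR unadjusted p = 0.198 and 0.26).

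Fitted alone, the males had 8 of the 10 genes higher with HK at an unadjusted p under 0.05, beside 3.62% of all genes tested in males, and none past adjustment (edgeR, lowest adjusted p = 0.674 for these genes). The 2 not among them were Fkbp5 (-0.03 ± 0.314) and Zbtb16 (0.16 ± 0.376). The females had 1 of the 10 higher, Cebpd, beside 1.22% of all genes tested in females. Zbtb16 was lower in females (-0.51 ± 0.18, edgeR unadjusted p = 0.0163, adjusted p = 1), where the share of all genes lower was not counted. Cebpd had nearly the same estimate in either sex, 1.09 ± 0.397 in males and 1.07 ± 0.417 in females. Tsc22d3 was at 0.68 ± 0.128 in males and 0.16 ± 0.169 in females, with an interaction of 0.52 ± 0.226 (edgeR unadjusted p = 0.0324, adjusted p = 0.998).

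**Figure D3:**
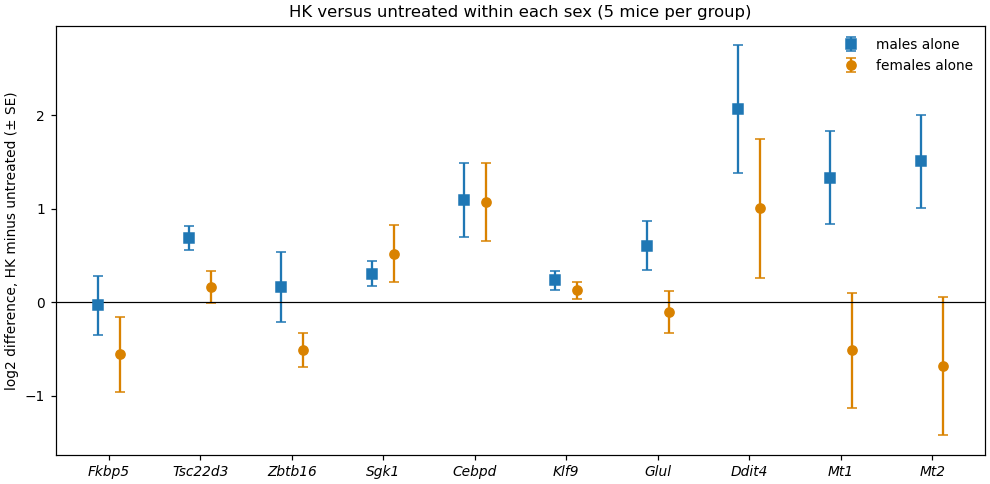
Log2 difference between HK-treated and untreated mice, fitted in males alone (squares) and females alone (circles), with bars of ± SE and 5 mice per group in each sex. Mt1 and Mt2 are above 0 in males (1.33 and 1.51) and below 0 in females (-0.51 and -0.68), and no interaction passed adjustment.

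Within batches, 4 of the 10 genes were higher with HK at an unadjusted p under 0.05 in batch 1 alone (Tsc22d3, Zbtb16, Klf9 and Glul, beside 1.5% of all genes tested there) and 3 in batch 2 alone (Tsc22d3, Cebpd and Ddit4, beside 3.10%). Tsc22d3 was among both, with 0.43 ± 0.114 in batch 1 and 0.42 ± 0.188 in batch 2. None passed adjustment in either batch (edgeR, adjusted p of 0.997 in batch 1 and at least 0.7 in batch 2 for these genes). Zbtb16 was at 0.34 ± 0.106 in batch 1 and -0.51 ± 0.331 in batch 2. The interaction of treatment with batch was under an unadjusted p of 0.05 for none of the 10 genes, beside 3% of all genes, and past adjustment for none (0% of all genes, edgeR, lowest adjusted p = 1).

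Males and females were next compared across both treatments. None of the 10 genes differed by sex (edgeR with batch and treatment as covariates, lowest adjusted p = 0.225, for Sgk1), beside 16.1% of all genes. The fitted differences, male minus female, lay between -0.24 for Glul and 0.34 for Sgk1. The 95% confidence interval was -0.17 to 0.14 for Klf9 and -0.22 to 0.30 for Tsc22d3, but as wide as -1.32 to 1.32 for Mt2. Sgk1 ranged from 150 to 286 CPM in males and from 62.4 to 295 CPM in females.

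The batches were compared last. Of the 10 genes, 8 were higher in batch 2 and none lower (edgeR with sex and treatment as covariates), beside 37.1% of all genes called in either direction and 18.2% called higher. The largest differences were those of Mt2 (4.21 ± 0.616, 18.5-fold), Ddit4 (4.05 ± 0.627, 16.6-fold) and Mt1 (3.76 ± 0.533, 13.6-fold), with edgeR adjusted p of 5.31e-05, 9.18e-05 and 3.91e-05. Cebpd (2.14 ± 0.336), Glul (1.28 ± 0.212), Fkbp5 (1.09 ± 0.286), Tsc22d3 (0.92 ± 0.13) and Zbtb16 (0.85 ± 0.243) followed, with edgeR adjusted p between 4.05e-05 and 0.0101. Sgk1 (0.47 ± 0.189, edgeR adjusted p = 0.0583) and Klf9 (-0.12 ± 0.076, edgeR adjusted p = 0.231) were not past the test.

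Mt1 was between 3.14 and 6.98 CPM in the 8 mice of batch 1, with a median of 4.61, and between 12.4 and 238 CPM in the 12 mice of batch 2, with a median of 35.8. Mt2 was between 2.33 and 6.79 CPM in batch 1 and between 17.4 and 234 CPM in batch 2, with medians of 3.12 and 29.5. Every batch 2 mouse was above every batch 1 mouse for these 2 of the 10 genes, as for 145 of all genes tested (1.06%). Ddit4 was between 2.95 and 10.0 CPM in batch 1 and between 7.96 and 284 CPM in batch 2, and 11 of the 12 batch 2 mice were above all of batch 1. The same held for 11 mice in Glul, 10 in Tsc22d3 and Cebpd, 8 in Fkbp5, 6 in Zbtb16 and Sgk1, and 0 in Klf9.

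Within batch 2 the metallothioneins were spread over a wide range. The mice with most Mt1 were HK male replicate 3 (238 CPM), untreated female replicate 3 (169 CPM) and HK male replicate 4 (102 CPM), which were also the highest in Mt2 (233, 234 and 119 CPM). The ratio of Mt1 to Mt2 stayed between 0.715 and 2.1 in all 20 mice. The mice with most Ddit4 were others in part, HK male replicate 4 (284 CPM), HK male replicate 3 (265 CPM) and HK female replicate 5 (255 CPM), and untreated female replicate 3 had only 7.96 CPM of Ddit4, the lowest of batch 2, with the highest Glul (1060 CPM) and the lowest Sgk1 (62.4 CPM) of all 20 mice.

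The batch difference was called for 7 of the 10 genes in males alone, where Zbtb16 was at 0.70 ± 0.391 (edgeR adjusted p = 0.207), beside 25.7% of all genes tested in males. It was called for 7 in females alone, where Fkbp5 was at 1.09 ± 0.422 (edgeR adjusted p = 0.119), beside 10.4% of all genes tested in females. Batch accounted for 74.3% of the variance of log2 CPM in Mt2, 73.5% in Mt1, 61.2% in Ddit4, 61.1% in Tsc22d3, 60.6% in Glul and 58.9% in Cebpd, beside a median of 14.9% over all genes. Treatment accounted for at most 24.7% (Klf9), beside a median of 2.09%.

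Markers of other cells also differed between the batches, and their part in the differences above was not tested. All 7 macrophage markers were higher in batch 2 (edgeR), beside 18.2% of all genes called higher. The summed levels of these markers were 18.6 to 64.6 CPM in batch 1 and 58.7 to 273 CPM in batch 2. All 7 blood markers (30.8 to 98.9 and 61.0 to 404.9 CPM) and all 5 fibroblast markers (153 to 387 and 276 to 1307 CPM) were higher too, as were 3 of 6 adipocyte and 1 of 6 endothelial markers, and no marker in these lists was at 0 throughout. Of the 8 skeletal muscle fibre markers, 2 were higher and 1 was lower, and their sums overlapped (139500 to 185100 and 140400 to 187800 CPM). None of the 6 slow fibre or 4 nerve markers was called. By the methods of the study, the batches were sequenced in separate experiments, and anything else that went with batch cannot be told apart from it here.

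Other genes of the pathway were described by list. Of the 13 genes listed for the receptor machinery, 2 were higher in batch 2, the chaperone Hsp90aa1 (0.52) and the co-chaperone Stip1 (0.20), and 1 lower, the corepressor Ncor1 (-0.15, a call lost in 16 of 28 alternative settings), with edgeR adjusted p between 0.0105 and 0.04. Over all genes tested, 37.1% were called by batch, and 18.2% were called higher in batch 2. Nr3c1, the receptor itself, was at -0.17 (edgeR adjusted p = 0.204) by batch, 0.16 by treatment (edgeR adjusted p = 0.832) and -0.24 by sex (edgeR adjusted p = 0.122). Hsd11b1, the enzyme that regenerates active hormone inside cells, was higher in males (0.75, edgeR adjusted p = 0.0123), as was H6pd, which supplies its cofactor (0.41, edgeR adjusted p = 0.000591). Nr3c2, the mineralocorticoid receptor, was lower in males (-0.38, edgeR adjusted p = 0.0017). None of the 13 was past even the unadjusted test with HK, where Hsd11b1 was at -0.32.

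Among 20 other genes known to be induced by glucocorticoids, 14 were higher and 1 was lower in batch 2, beside 18.2% of all genes called higher. The median of the 20 was 1.09, beside 0.00 for all genes. Those with the lowest p were Errfi1, a feedback inhibitor of the EGF receptor (1.79), Map3k6, a stress-activated kinase (2.14), and Cebpb, a transcription factor of the family of Cebpd (1.33), all with an edgeR adjusted p at or under 0.000113. By sex, 4 of the 20 were lower in males, beside 7.33% of all genes, and none was higher, and those with the lowest p were Sesn1 (-1.12), Foxo3 (-0.52) and Pik3r1 (-0.59), with an edgeR adjusted p of at most 0.018. With HK none passed adjustment, 6 were higher at an unadjusted p under 0.05 (edgeR), beside 2.78% of all genes, and none was lower.

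Of the 17 zinc handling genes, 15 were tested. The zinc exporter Slc30a1 and Mt4 had at most 2 counts in any mouse and were not. In batch 2, 5 were higher and 2 lower, beside 37.1% of all genes called in either direction. Those with the lowest p were Slc30a9 (-0.28), the importer Slc39a6 (0.63) and Mt3 (1.67), with an edgeR adjusted p of at most 0.000455. The median of the 15 by batch was 0.07, beside 3.76 and 4.21 for Mt1 and Mt2, and Mtf1, the metal-sensing factor, was at 0.00 (edgeR adjusted p = 0.981). By sex, 3 were higher in males, the zinc exporter Slc30a2 (4.15), Mt3 (0.94) and the importer Slc39a1 (0.21), with edgeR adjusted p of 4.95e-12, 0.0328 and 0.0351, beside 8.79% of all genes. The call was lost in 10 of 28 alternative settings for Mt3 and in 14 of 28 for Slc39a1. None was past the unadjusted test with HK, where Mtf1 was at -0.02.

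The 8 immediate early genes, which respond within minutes to hormones, activity and stress, were all higher in batch 2, beside 18.2% of all genes. Their median was 3.13, and those with the lowest p were Atf3 (3.44), Btg2 (2.82) and Nr4a1 (1.58). Of the 14 core clock genes, 2 were higher and 7 lower in batch 2, beside 37.1% of all genes called in either direction. Those with the lowest p were Nr1d2 (-0.56), Dbp (-1.70) and Nr1d1 (-0.76), each with an edgeR adjusted p of at most 0.000222. By sex, Tef (0.24) was the only clock gene called (edgeR adjusted p = 0.0411), a call lost in 14 of 28 alternative settings. With HK none of either list passed adjustment. At an unadjusted p under 0.05 (edgeR), 3 clock genes were higher, beside 2.78% of all genes, and none was lower. Per1 is on the clock list and among the other glucocorticoid-induced genes, so the higher counts of both lists include it.

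**Figure D4:**
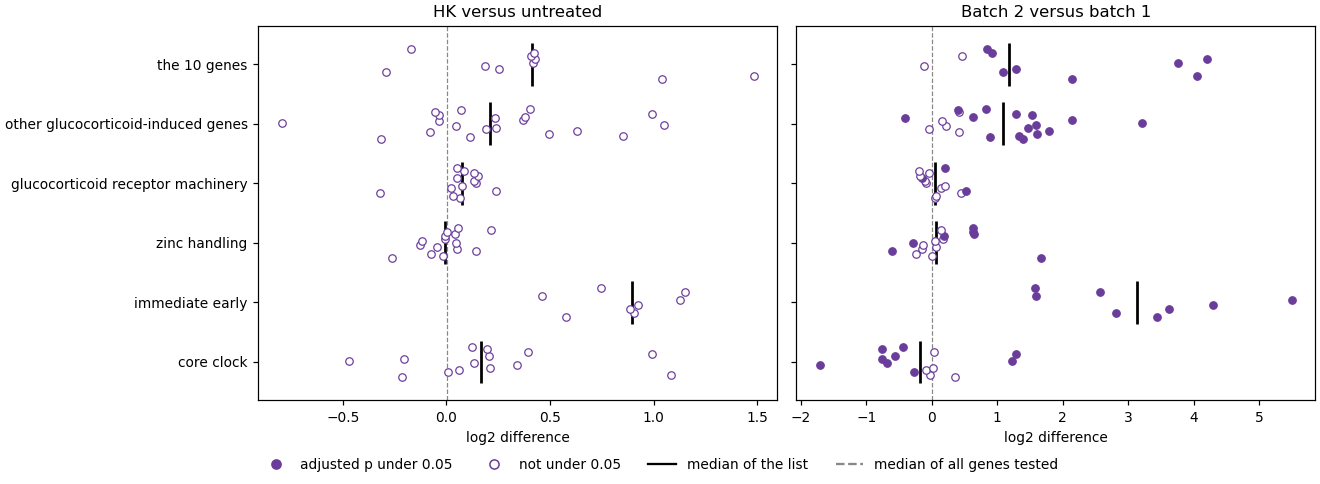
Log2 difference of every tested gene of the 10 and of 5 related lists, for HK versus untreated and batch 2 versus batch 1, filled where the adjusted p was under 0.05, with a bar at the list's median and a dashed line at the median of all genes. The 10 genes have medians of 0.41 and 1.18, the immediate early genes 0.895 and 3.13, and the other glucocorticoid-induced genes 0.21 and 1.09. The receptor machinery has 0.08 and 0.05, zinc handling -0.005 and 0.07, and the core clock 0.165 and -0.184.

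Finally, the 10 genes were compared across the 20 mice after taking out batch, sex and treatment from log2 CPM, over 45 pairs. Pearson's r was positive in 38 pairs, with a median of 0.391. It was past the test in 12 pairs (two-sided permutation within batches, Benjamini-Hochberg adjusted over the 45 pairs), and in 9 of these Spearman's rho was too. Pairs of other genes were not tested, so these counts do not set the 10 genes apart from others. Mt1 and Mt2 were closest, with r = 0.949 and rho = 0.938 (permutation p = 1e-05 for both, the smallest that 100000 resamples can give, adjusted p = 0.00045). Their r was 0.803 in batch 1, 0.966 in batch 2 and 0.892 without the 2 mice farthest from the median of Mt1.

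Glul went with Zbtb16 (r = 0.81, rho = 0.815, permutation p = 0.00014 and 0.00011, adjusted p = 0.0021 and 0.00165) and with Fkbp5 (r = 0.782, rho = 0.829, permutation p = 0.00032 and 5e-05, adjusted p = 0.0036 and 0.00113). Without the 2 farthest mice these were 0.687 and 0.835, and they were 0.767 and 0.549 in batch 1 and 0.818 and 0.821 in batch 2. Fkbp5 went with Mt1 (r = 0.697, rho = 0.713, permutation p = 0.0055 and 0.00181, adjusted p = 0.0275 and 0.0136), where r was 0.144 in batch 1 and 0.579 without the 2 farthest mice. Glul also went with both metallothioneins, at r = 0.676 and rho = 0.65 for Mt1 (permutation p = 0.00517 and 0.00542, adjusted p = 0.0275 and 0.0348) and r = 0.634 and rho = 0.633 for Mt2 (permutation p = 0.00874 and 0.0065, adjusted p = 0.0385 and 0.0366). Their r was 0.235 and 0.251 in batch 1, 0.737 and 0.696 in batch 2, and 0.527 and 0.528 without the 2 farthest mice.

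Tsc22d3, Cebpd and Ddit4 were related to each other. The r of Tsc22d3 was 0.684 with Cebpd (rho = 0.662, permutation p = 0.00013 and 0.0017, adjusted p = 0.0021 and 0.0136) and 0.733 with Ddit4 (rho = 0.615, permutation p = 0.00097 and 0.00812, adjusted p = 0.00728 and 0.0369). Cebpd and Ddit4 had r = 0.645 and rho = 0.696 (permutation p = 0.00091 and 0.00077, adjusted p = 0.00728 and 0.00866). Without the 2 farthest mice these 3 pairs were at 0.592, 0.6 and 0.775, and within batch 1 at 0.678, 0.296 and 0.592.

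In 3 pairs r passed and rho did not, and in 4 pairs rho passed and r did not. Sgk1 and Mt2 ran against each other (r = -0.695, permutation p = 0.00255, adjusted p = 0.0164, and rho = -0.528, adjusted p = 0.0837), with r = -0.203 in batch 1 and -0.537 without the 2 farthest mice. Fkbp5 and Tsc22d3 had r = 0.638 (permutation p = 0.00942, adjusted p = 0.0385) and rho = 0.448 (adjusted p = 0.155), and r was 0.738 in batch 2, -0.123 in batch 1 and 0.402 without HK female replicates 4 and 5, the 2 mice farthest from the median of Fkbp5. Zbtb16 and Klf9 had r = 0.595 (permutation p = 0.0111, adjusted p = 0.0416) and rho = 0.511 (adjusted p = 0.0923), with r = 0.472 in batch 1 and 0.464 without the 2 farthest mice. The 4 pairs past the test by rho alone were Fkbp5 with Mt2 (0.627), with Zbtb16 (0.608) and with Sgk1 (-0.585), and Tsc22d3 with Glul (0.594), with permutation p adjusted over the pairs between 0.0369 and 0.0429.

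**Figure D5:**
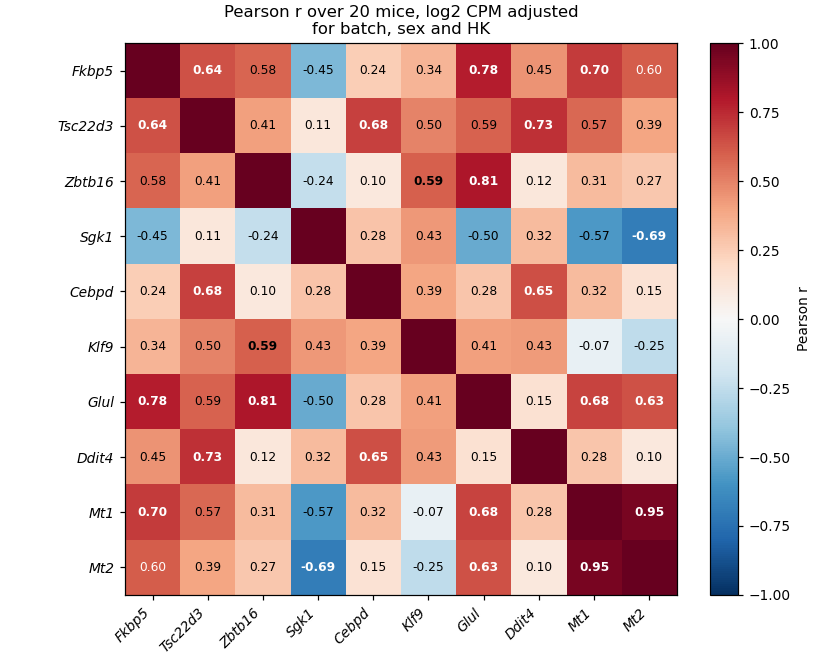
Pearson's r for each pair of the 10 genes over 20 mice, from log2 CPM adjusted for batch, sex and treatment, in bold where the permutation p adjusted over 45 pairs was under 0.05. Mt1 with Mt2 (0.949) is the highest and Sgk1 with Mt2 (-0.695) the lowest.

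As a description with no test, the genes whose adjusted levels ran closest to the metallothioneins were sought among all 13625 other genes by Spearman's rho over the 20 mice. For Mt1 they were Mt2 (0.938), Pprc1 (0.895), Tmem246 and Gm45774 (0.877 each) and Slc39a14 (0.854). For Mt2 they were Gm45774 (0.943), Mt1 (0.938), Slc3a2 (0.874), Slc39a14 (0.857) and Pprc1 (0.847). Gm45774 is the antisense gene that overlaps Mt2, so its reads and those of Mt2 cannot be told apart without strand. Slc39a14, an importer of zinc and iron, was also among the 5 closest to Fkbp5 (0.833), after Nifk and Ercc3 (0.844 each), Il6ra (0.842) and Sra1 (0.838). The rho of Slc39a14 with these 3 genes was between 0.5 and 0.667 in batch 1 and between 0.853 and 0.86 in batch 2. The points share their libraries, and the closest of so many genes are high by selection.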

How the data were processed

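RNA of the gastrocnemius of 20 mice was sequenced for 75 cycles on an Illumina NextSeq. The authors aligned reads with STAR 2.6.1c to GRCm38.p6, quantified genes with GENCODE M25 and deposited raw counts per gene, which are whole numbers with no normalization. How reads were counted (tool, strand, reads shared by genes) is not given in the sources used here. Symbols and positions came from GENCODE M21, also on GRCm38, which held 55141 of the 55401 identifiers.

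Tests used edgeR 4.0.16 in R 4.3.3 (quasi-likelihood test, TMM, filterByExpr at a minimum count of 10, batch and sex as covariates, interactions of treatment with sex and batch), with Benjamini-Hochberg adjustment over 13626 genes and a threshold of 0.05. Log2 CPM used a prior count of 2. Correlations used 100000 permutations within batches. DESeq2 1.42.0, limma 3.58.1 and Python 3.11.15 were also used. Treatment, sex, batch and replicate came from the labels, age and length of treatment from the study's methods. Depth (13900180 to 30469644 counts per mouse) limits most Cebpd, the member with the lowest level over all mice. In batch 1 it also limits Mt2, Mt1 and Ddit4, with medians of 3.12, 4.61 and 4.84 CPM beside 3.33 for Cebpd.

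The members, lists and alternatives were chosen with earlier results of these data known. Named beside the members were, by rule, Nr3c1, Hsd11b1, Mtf1, Slc30a1, at most 3 genes per list and comparison with the lowest p past adjustment, and the 5 genes closest to Fkbp5, Mt1 and Mt2. Per1 was named outside the rule, since the clock list and the list of other glucocorticoid-induced genes both hold it. Alternatives were DESeq2 size factors, no filter, DESeq2, limma voom, a replicate block, no covariates, each batch or sex alone, each mouse left out, and, chosen after seeing the data, a filter at a minimum count of 3. The tests were tried on simulated data. Each gene's spread there came from a trend shared over genes, so the trial does not cover the wide spread of genes such as Ddit4.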

Additional observations from a re-analysis of the deposited data

How the results depend on the processing

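With no filter on low counts (30096 genes), edgeR's prior degrees of freedom rose from 4.26 to infinity, so that every gene took its spread from a shared trend. That fit called 8 members and 502 genes for HK, and among these members Fkbp5 was lower (-0.279, edgeR adjusted p = 0.00714). Members higher at an unadjusted p under 0.05 were also 8, with Klf9 (edgeR adjusted p = 0.132) and without Fkbp5. The fit called 7 members and 314 genes for treatment by sex, and 3 members and 225 genes for treatment by batch. For sex it called 3 members, and the number of all genes called is not given here. A filter at a minimum count of 3 (16496 genes) called 0 members and 0 genes for HK and both interactions. For HK, DESeq2 called 7 genes. Members higher with HK at an unadjusted p under 0.05 were 3 in batch 2 alone, 8 in males alone, 1 in females alone and 3 with no covariates, and 3 (without HK male replicate 1) to 8 (without untreated female replicate 3) when each mouse was left out, with 0 to 1 genes called. Genes called by sex were 1312 in batch 1 and 936 in batch 2, and by batch 3302 in males and 1359 in females. The batch calls of the 8 members held under all other settings named, except Zbtb16 in males and Fkbp5 in females, and Sgk1 joined them with DESeq2, with no filter and without any of 4 mice (lowest adjusted p = 0.00642, edgeR, without untreated female replicate 3).

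With the replicate block (sex and replicate number), 4 members were higher at an unadjusted p under 0.05 and 0 were called. The share of all genes higher at this level was not counted for the block. It was not counted with no filter, with no covariates or with mice left out either. Whether same-numbered mice were pairs was not settled. Their deviations from the mean of their treatment, sex and batch correlated between -0.074 and 0.169 in batch 2. In batch 1, replicates 1 and 2 are the only mice of each such set and mirror each other. Each sex therefore gave a single value there, 0.174 in females and -0.425 in males, whose sign depends on the numbering.

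Among estimates not past the tests, some turned direction. For HK, Zbtb16 was at 0.34 in batch 1 and 0.16 in males, Glul at -0.11, Mt1 at -0.51 and Mt2 at -0.68 in females, Nr3c1 at -0.035 in batch 1, and Mtf1 at 0.084 in batch 1, 0.079 in males and -0.040 to 0.015 with mice left out. By sex, Tsc22d3 was at -0.022 in batch 2, Cebpd at 0.27, Klf9 at 0.12 and Mt2 at -0.27 in batch 1, Ddit4 at 0.02 with DESeq2, 0.18 with limma voom and 0.36 with no covariates, and Mt2 at -0.049 with DESeq2. With mice left out, sex differences ran from -0.29 to 0.35 for Ddit4, -0.006 to 0.296 for Fkbp5, -0.070 to 0.030 for Klf9, -0.11 to 0.76 for Mt1, -0.31 to 0.73 for Mt2 and -0.028 to 0.104 for Tsc22d3. By batch, Klf9 was at 0.008 in females. Treatment by sex for Cebpd was -0.21 with DESeq2 and -0.35 to 0.41 with mice left out. Treatment by batch for Mt1 was 0.003 with DESeq2 size factors, 0.014 with no filter and 0.016 with DESeq2, and with mice left out it ran from -0.62 to 0.78 for Mt1, -0.90 to 0.75 for Mt2, -0.125 to 0.036 for Klf9, -0.062 to 0.258 for Sgk1 and -0.11 to 0.11 for Tsc22d3. Fkbp5 with Tsc22d3 had r = -0.123 in batch 1, 0.402 without the 2 farthest mice and 0.31 adjusted for batch and sex only, Fkbp5 with Mt2 0.244 and Sgk1 with Mt2 -0.203 in batch 1. Sex calls of Hsd11b1, Nr3c2, Pik3r1 and H6pd were each lost in batch 1 or batch 2 alone, and of 28 settings those of Slc39a1 and Tef were lost in 14 each and that of Mt3 in 10. The causes were not tested.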
